A study of Arabidopsis thaliana with 6 samples.

Results

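The genes described here make up a run of chromosome 1 of Arabidopsis thaliana, from AT1G34035 to AT1G43770 in locus order, less 2 loci that were not analysed here. The run holds 761 of the 33323 genes counted, and 200 of them had 10 or more reads summed over the 6 libraries. It was chosen by identifier, with genotype differences along the chromosome already known, so the counts of genes that differ are a description and no test of the stretch was made. Genes were measured by mRNA sequencing in cut pieces of style with the pollen tubes that had grown into them. There were 3 libraries from wild type (Col-0) and 3 from paps1-1 in Col-0. PAPS1 encodes a nuclear poly(A) polymerase, which adds the poly(A) tail to new transcripts. The labels name no other allele or agent, and they give neither plant age nor which of the pollen and pistil parents carried paps1-1. They call the wild-type samples biological replicates and the paps1-1 samples replicates only, so the spread between the latter may be technical.

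The centromere of a plant chromosome and the heterochromatin around it are rich in repeats, transposon remnants and pseudogenes, and genes are sparse there and often silent. The files hold no centromere position, so the label was set against the kinds of gene instead. Of the 747 members matched to the RefSeq annotation of assembly TAIR10.1, 476 were pseudogenes, or 63.7%, against 13.6% of the 32088 other matched genes. No read was counted in any library for 438 of the 761 members (57.6%), against 20.4% of the other genes, and 123 more had 1 to 9 reads. Of the 200 members with 10 or more reads, 135 had enough for a test and 65 did not. The cut-off lies among sparse values. Of the 2 members with 9 reads, AT1G35280 had 0, 0 and 0 reads in wild type and 7, 1 and 1 in paps1-1, and AT1G42703 had 1, 0 and 1 and then 3, 3 and 1. Of the 7 members with 10 reads, AT1G34575 had 5, 1 and 0 and then 2, 0 and 2, AT1G35050 had 1, 0 and 0 and then 4, 1 and 4, and AT1G35450 had 1, 1 and 5 and then 1, 1 and 1.

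The libraries held between 4541233 and 21031017 reads in genes, with paps1-1 replicate 2 the shallowest. Reads that mapped to several places were 74.6% of all reads in paps1-1 replicate 2 and 7.28% to 28.0% in the others. Levels are given as CPM, gene reads scaled to a common library size with TMM factors, and 3 reads, the floor used here, correspond to 0.152 to 0.638 CPM. All 13 pollen tube markers were tested and none was called different between genotypes, with a summed level of 81210, 50340 and 116100 CPM in wild-type replicates 1 to 3 and of 59160, 61880 and 71100 CPM in paps1-1 replicates 1 to 3. Summed style and stigma markers stood at 23.2 to 34.9 CPM in wild type and 31.7 to 37.6 CPM in paps1-1, with 6 of 10 tested and HEC1 and CRC at 0 in every library. Summed green tissue markers stood at 78.6 to 100.2 CPM in wild type and at 62.3, 67.9 and 314.2 CPM in paps1-1. Sperm cell markers summed to 49.5 to 88.9 CPM and 94.6 to 132.5 CPM, ovule markers to 34.2 to 59.4 and 44.2 to 60.0 CPM, and tapetum markers to 1.71 to 2.25 and 0.851 to 1.37 CPM. The genotypes did not overlap in the sperm cell and tapetum sums. All 4 tested sperm cell markers had positive log2 fold changes, from 0.39 to 0.96, and the 1 tested tapetum marker had -0.36. None of these was called. In such mixed tissue, fewer cells of a type and less RNA per cell cannot be told apart.

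The 4 thionin-family genes of the stretch with enough reads for a test were lower in paps1-1. Thionins are small secreted plant proteins held together by disulphide bonds between cysteines, and are known for toxicity to microbes. The stretch holds 14 genes annotated to this family. The coding sequences of the 5 with 10 or more reads are printed here with that of AT1G34800, which had no read, because the differences between these copies decide which genes a read can be assigned to. They were read from the TAIR10.1 annotation of RefSeq by locus identifier, on the minus strand of chromosome 1 and 5' to 3', with in-frame cysteine codons in capitals.
AT1G34792: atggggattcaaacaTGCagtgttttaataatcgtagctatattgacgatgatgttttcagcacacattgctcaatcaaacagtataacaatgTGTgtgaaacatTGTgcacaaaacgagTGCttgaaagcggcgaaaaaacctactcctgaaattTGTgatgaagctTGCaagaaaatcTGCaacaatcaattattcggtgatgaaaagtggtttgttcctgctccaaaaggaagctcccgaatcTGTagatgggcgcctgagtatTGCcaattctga
AT1G34795: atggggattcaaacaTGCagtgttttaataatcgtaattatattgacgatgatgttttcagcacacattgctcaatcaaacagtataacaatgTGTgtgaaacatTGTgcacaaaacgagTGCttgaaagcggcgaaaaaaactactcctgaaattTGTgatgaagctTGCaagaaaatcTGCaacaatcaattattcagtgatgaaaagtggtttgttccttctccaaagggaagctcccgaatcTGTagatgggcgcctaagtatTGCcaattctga
AT1G34800: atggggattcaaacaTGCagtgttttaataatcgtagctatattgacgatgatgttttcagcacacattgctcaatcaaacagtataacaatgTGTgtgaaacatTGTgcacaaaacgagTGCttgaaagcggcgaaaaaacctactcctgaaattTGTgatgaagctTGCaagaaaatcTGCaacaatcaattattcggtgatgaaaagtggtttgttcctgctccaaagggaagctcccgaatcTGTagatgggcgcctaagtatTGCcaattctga
AT1G34860: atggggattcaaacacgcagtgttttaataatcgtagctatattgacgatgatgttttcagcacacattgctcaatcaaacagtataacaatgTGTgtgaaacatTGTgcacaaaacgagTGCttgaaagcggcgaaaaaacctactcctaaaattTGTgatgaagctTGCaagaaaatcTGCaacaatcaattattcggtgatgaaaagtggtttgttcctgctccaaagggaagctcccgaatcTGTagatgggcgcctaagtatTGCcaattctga
AT1G34930: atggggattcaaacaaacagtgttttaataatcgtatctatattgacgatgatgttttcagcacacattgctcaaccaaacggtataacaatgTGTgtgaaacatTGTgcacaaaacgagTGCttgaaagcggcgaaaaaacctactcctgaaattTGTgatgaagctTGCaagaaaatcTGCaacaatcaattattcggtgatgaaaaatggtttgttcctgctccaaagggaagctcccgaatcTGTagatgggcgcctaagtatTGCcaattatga
AT1G35035: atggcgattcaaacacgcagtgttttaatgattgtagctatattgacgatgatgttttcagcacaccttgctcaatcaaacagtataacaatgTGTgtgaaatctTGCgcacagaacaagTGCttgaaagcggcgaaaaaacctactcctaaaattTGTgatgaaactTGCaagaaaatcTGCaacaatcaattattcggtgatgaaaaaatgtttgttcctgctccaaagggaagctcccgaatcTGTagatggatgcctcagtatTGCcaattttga
Each of these 6 sequences is 279 bases long. AT1G34792, AT1G34795 and AT1G34800 have 9 in-frame cysteine codons and AT1G34860, AT1G34930 and AT1G35035 have 8. The codon that differs is the sixth, a cysteine codon in the first 3 of these genes. AT1G34792 and AT1G34860 share 98.6% of aligned bases, AT1G34792 and AT1G34795 share 97.5%, and AT1G35035 shares at most 93.9% with any other member of the family.

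Reads were counted for copies with a sequence of their own and for none that shares its sequence with another. The 9 thionin-family members with no read in any library fall into groups of 4, 3 and 2 genes with identical coding sequences, AT1G34800 being in the group of 4. None of the 5 members with 10 or more reads has an identical copy, though AT1G34795 shares 99.6% of bases with AT1G34810, and AT1G34792 and AT1G34860 each share 99.3% with AT1G34800. Reads that fit several places were set apart from the gene counts, so a level of 0 in the identical copies is no measure of their transcripts, and the levels of the near-identical copies are uncertain.

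AT1G34792 stood at 17.8, 9.46 and 19.2 CPM in wild-type replicates 1 to 3 and had no read in any paps1-1 library. Its 772 wild-type reads put it at least 213-fold lower in paps1-1, taking 3 reads over the group as the floor. Its neighbour AT1G34795 stood at 2.69, 3.97 and 5.61 CPM in wild type, again with no read in paps1-1, at least 54.3-fold lower. In the other 2 tested copies reads remained in paps1-1. AT1G34860 stood at 16.2, 21.4 and 22.04 CPM in wild type and at 3.26, 3.62 and 2.43 CPM in paps1-1, a log2 fold change of -2.72 (SE 0.28, 3 libraries per genotype). AT1G35035, the least like the others shown, fell from 26.3, 19.5 and 23.2 CPM to 2.25, 4.47 and 1.47 CPM, a log2 fold change of -3.24 (SE 0.35). For AT1G34930 only 27 reads were counted, 6, 2 and 3 from wild type against 5, 2 and 9 from paps1-1, too few for a test. The 4 tested thionin genes were thus all called lower, as were 1.18% of all tested genes, and in each the genotypes did not overlap. AT1G34792 and AT1G34795, with no read in paps1-1, entered the test through wild-type reads alone and could only come out lower. Of all tested genes, 14.7% had genotypes that did not overlap. AT1G34792, AT1G34795 and AT1G34860 have near-identical copies, so the 4 may not be independent measures.

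**Figure D1:**
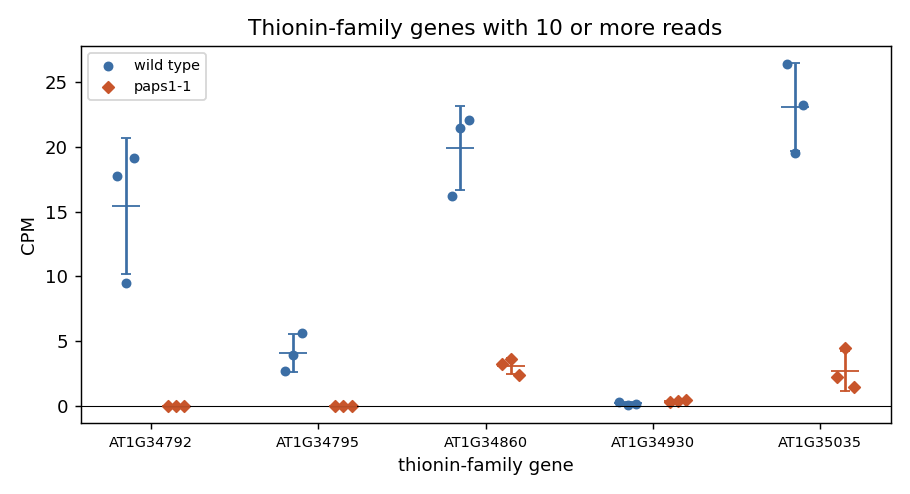
Level (CPM, linear axis from 0) of the 5 thionin-family genes with 10 or more reads in single libraries (points), with the mean (horizontal line) and SD (bar) of 3 libraries per genotype, blue for wild type and orange for paps1-1. AT1G34792 and AT1G34795 have no read in paps1-1, AT1G34860 and AT1G35035 lie well below wild type there, and AT1G34930 is near 0 in both genotypes.

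Over the whole stretch, 26 of 135 tested members (19.3%) were called, meaning a Benjamini-Hochberg adjusted p below 0.05 in the edgeR quasi-likelihood fit over all 18317 tested genes, where 2.34% passed. Of these, 9 were higher in paps1-1 and 17 lower, with 1.16% and 1.18% of all tested genes called in these directions. Since the stretch was chosen on this contrast, nothing is read from these shares. In all 26 the values of the genotypes did not overlap, which adds no support, since the calls rest on the same values. Genotypes did not overlap in 39 of the tested members (28.9%) and in 14.7% of all tested genes. The log2 fold change reached 4 or more in size in 10 called members and was under 2 in 6.

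Gains and losses lay between genes that differed little. The median log2 fold change of the tested members was -0.03 against 0.03 over all tested genes, and 64 of 135 were positive. The median size of the log2 fold change was 0.33, against 0.24 over all tested genes. Of the 109 tested members that were not called, 106 had a log2 fold change of less than 1 in size and 89 of less than 0.5. The summed level of these 109 was 3145, 2743 and 3519 CPM in wild type and 3091, 2981 and 3537 CPM in paps1-1, so the genotypes overlapped. The summed level of all 761 members was lower in paps1-1, at 3725, 3332 and 3844 CPM against 4710, 5285 and 6519 CPM. Without AT1G34095 and AT1G41820 the sums were 3266, 3143 and 3676 CPM against 3524, 3122 and 4078 CPM and overlapped.

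**Figure D2:**
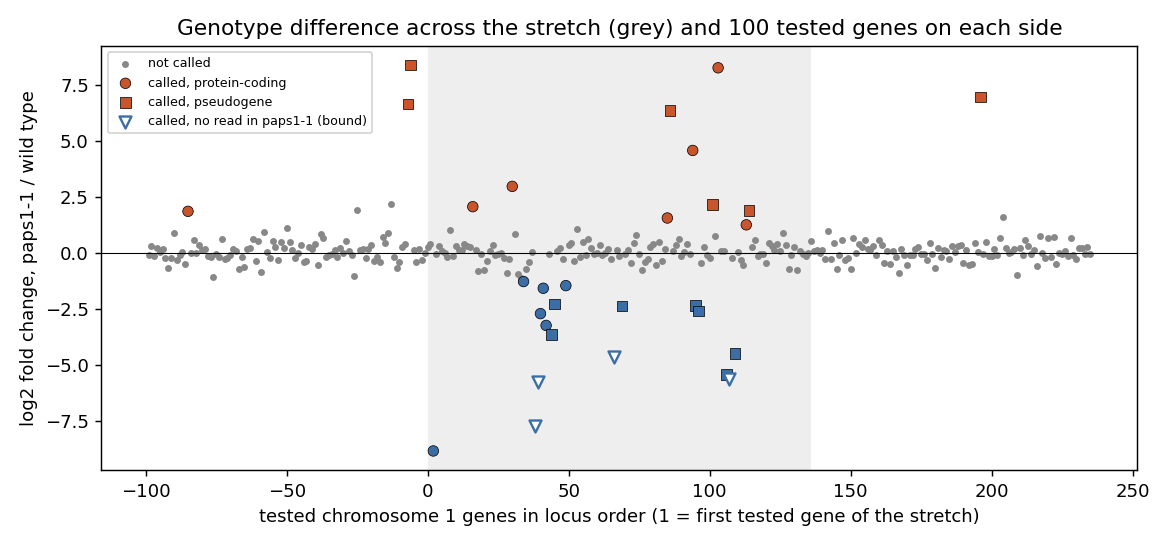
Log2 fold change, paps1-1 over wild type, of tested chromosome 1 genes in locus order, for the 135 tested members (grey band) and 100 tested genes on each side. Grey points were not called, orange marks were called higher and blue marks called lower (circles, protein-coding; squares, pseudogenes; open triangles, lower bound for genes with no read in paps1-1). Called genes are interspersed with uncalled ones up to AT1G42697 and no member beyond it is called.

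The protein-coding gene with the largest loss apart from the genes at 0 was AT1G34095, whose product is uncharacterised and which lies at the start of the stretch. It stood at 1186, 2162 and 2440 CPM in wild type and at 2.14, 5.96 and 4.90 CPM in paps1-1, a log2 fold change of -8.85 (SE 0.56). The libraries of the genotypes lay far apart. The auxin response factor gene ARF14 (AT1G35540), of a family of transcription factors that act on auxin-regulated genes, had 25, 16 and 49 reads in wild type, or 1.29, 0.98 and 3.44 CPM, and none in paps1-1. It was at least 24.8-fold lower there, and 6 further auxin response factor genes of the stretch had fewer than 10 reads in all. ARF14 overlaps AT1G35545 on the other strand, which had no read.

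Other protein-coding losses were smaller. AT1G35190, of the 2-oxoglutarate and iron-dependent oxygenase family, fell from 68.3, 86.6 and 78.8 CPM to 32.0, 28.7 and 23.9 CPM (log2 fold change -1.47, SE 0.24). AT1G34750, a protein phosphatase 2C family gene whose relatives remove phosphate from proteins, fell from 15.3, 19.4 and 19.4 CPM to 7.54, 7.02 and 7.53 CPM (-1.28, SE 0.24). AT1G34910, uncharacterised, fell from 10.58, 18.98 and 16.56 CPM to 7.77, 5.11 and 2.53 CPM (-1.58, SE 0.37). The genotypes were apart in all of these, by the least in AT1G34910, whose lowest wild-type library was near its highest paps1-1 library.

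Pseudogenes made up 8 of the 17 losses. Over the stretch 11 of 17 tested pseudogenes were called, 3 higher and 8 lower, against 15 of 117 tested protein-coding members, 6 higher and 9 lower. In the whole series 28.8% of 358 tested pseudogenes and 1.81% of 17778 tested protein-coding genes were called, so pseudogenes were called at a higher share than protein-coding genes there too.

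SADHU2-1 (AT1G35112) belongs to the Sadhu elements, non-coding retrotransposon-like sequences of Arabidopsis. It stood at 18.5, 15.2 and 28.1 CPM in wild type and at 1.96, 1.06 and 1.62 CPM in paps1-1 (log2 fold change -3.64, SE 0.33). It overlaps AT1G35110 on the same strand, and the 2 cannot be fully told apart by counting. AT1G35110 itself had a log2 fold change of -0.06 (SE 0.26), with 17.8, 22.1 and 28.1 CPM in wild type and 23.2, 24.9 and 17.2 CPM in paps1-1. AT1G35115, the next locus, fell from 149.7, 93.5 and 200.6 CPM to 25.7, 35.3 and 30.6 CPM (-2.28, SE 0.31). The genotypes were apart in SADHU2-1 and AT1G35115 and overlapped in AT1G35110 beside them.

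Further along the chromosome, the pseudogene AT1G35612, a remnant of a Ulp1-type protease gene, fell from 2.74, 4.39 and 6.25 CPM to 0.95, 0.85 and 0.76 CPM (log2 fold change -2.37, SE 0.40). AT1G36680 fell from 9.60, 18.3 and 19.5 CPM to 3.798, 2.98 and 2.38 CPM (-2.37, SE 0.33). Its neighbour AT1G36700, a remnant of an invertase and pectin methylesterase inhibitor gene, fell from 2.79, 3.85 and 2.95 CPM to 0.65, 0.64 and 0.35 CPM (-2.60, SE 0.42). These 3 losses were of like size, and the 3 lost pseudogenes nearer the far end had larger ones.

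AT1G41930 stood at 3.10, 7.57 and 18.4 CPM in wild type and at 0.36, 0 and 0.15 CPM in paps1-1, 446 reads against 9, a ratio of wild type to paps1-1 of 41.0 (95% counting interval 21.4 to 90.2). AT1G42160 stood at 9.81, 22.5 and 49.3 CPM in wild type and at 1.48, 0 and 1.42 CPM in paps1-1 (log2 fold change -4.51, SE 0.59). AT1G42110 had 52, 75 and 53 reads in wild type, or 2.68, 4.58 and 3.72 CPM, and none in paps1-1, at least 49.6-fold lower. Wild-type replicate 3 was the highest in AT1G41930 and AT1G42160 and was also highest in the pollen tube markers, whose part in these levels was not tested. The lowest wild-type library was replicate 2 in those markers and replicate 1 in both genes. Without wild-type replicate 3 the log2 fold changes of AT1G41930 and AT1G42160 were -4.61 and -3.77. Without paps1-1 replicate 1 that of AT1G41930 was -6.23.

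**Figure D3:**
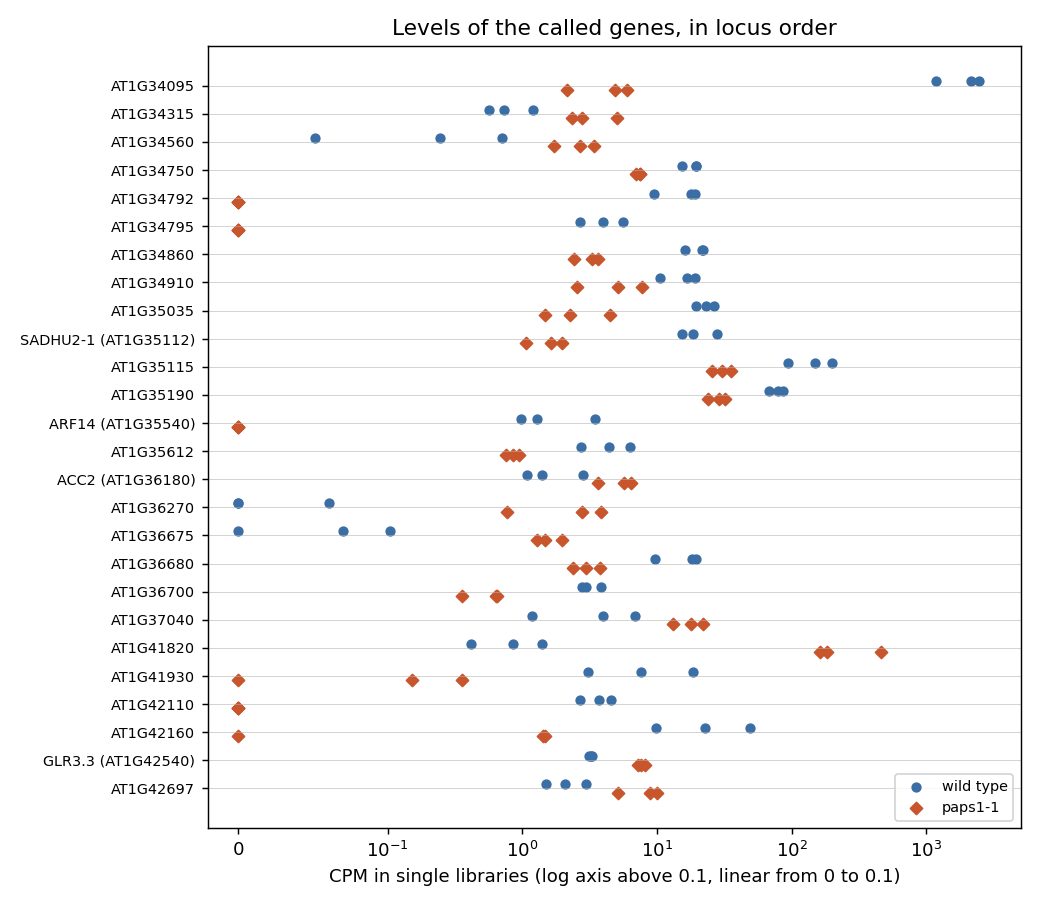
CPM of the 26 called members in single libraries, in locus order (axis logarithmic above 0.1 and linear from 0 to 0.1), blue circles for wild type and orange diamonds for paps1-1. In every row the 3 blue and 3 orange marks lie apart, and in AT1G34792, AT1G34795, ARF14 and AT1G42110 all orange marks are at 0.

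Among the gains, AT1G41820, a protein-coding gene with an uncharacterised product, stood at 0.41, 0.85 and 1.40 CPM in wild type and at 457.4, 183.4 and 163.5 CPM in paps1-1, a log2 fold change of 8.26 (SE 0.56). Every paps1-1 library was far above every wild-type one, and paps1-1 replicate 1 was the highest, without which the log2 fold change was 7.63. The next locus, the pseudogene AT1G41825, had no read in wild type and 42, 5 and 4 reads in paps1-1, at least 20.6-fold higher. Both neighbours were thus detected chiefly or solely in paps1-1.

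The protein-coding gene AT1G36675, of the glycine-rich proteins, had 0.10, 0 and 0.07 CPM in wild type and 1.96, 1.28 and 1.47 CPM in paps1-1, 3 reads against 68, a ratio of 27.4 (95% counting interval 8.99 to 136.3). It lies next to AT1G36680, which fell. AT1G34560, which carries a domain of unknown function, rose from 0.05, 0.24 and 0.70 CPM to 2.67, 3.40 and 1.72 CPM (log2 fold change 2.97, SE 0.61). AT1G34315, uncharacterised, rose from 0.57, 0.73 and 1.19 CPM to 5.04, 2.77 and 2.33 CPM (2.06, SE 0.43). It overlaps AT1G34317 on the other strand, which was not among the genes counted. Strand was ignored in counting, so reads of these genes cannot be fully told apart. Near copies elsewhere in the genome covered 42.4% of the exon bases of AT1G34315. The wild-type libraries of AT1G36675 held 3 reads in all, so its size is imprecise, and those of AT1G34315 were above the floor. Without wild-type replicate 1 the log2 fold change of AT1G36675 was 5.28, against 4.57 with it, and without wild-type replicate 3 that of AT1G34560 was 4.03.

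Of the protein-coding gains, ACC2 and GLR3.3 have well-studied products. ACC2 (AT1G36180) encodes an acetyl-CoA carboxylase, an enzyme that makes the malonyl-CoA from which fatty acids are built, and is the form that is sent to plastids. It rose from 1.08, 1.40 and 2.81 CPM to 5.70, 6.38 and 3.64 CPM (log2 fold change 1.55, SE 0.38). Its close relative ACC1 (AT1G36160), which serves the cytosol, lies just before it and stood at 29.1, 24.8 and 16.9 CPM in wild type and 25.2, 32.6 and 22.6 CPM in paps1-1 (0.17, SE 0.26). The genotypes were apart in ACC2 and overlapped in ACC1. GLR3.3 (AT1G42540), a glutamate receptor-like channel known for calcium signals after wounding, rose from 3.25, 3.11 and 3.30 CPM to 8.13, 7.66 and 7.23 CPM (1.25, SE 0.26). It overlaps PMI1 (AT1G42550) on the same strand, which had 57 reads in all and was not tested.

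The pseudogene AT1G36270 had 0, 0.06 and 0 CPM in wild type and 0.77, 3.83 and 2.78 CPM in paps1-1, 1 read against 86, a ratio of 104.0 (95% counting interval 18.2 to 4156), and its log2 fold change of 6.35 became 8.11 without wild-type replicate 2, which holds the single read. AT1G37040 rose from 1.19, 6.90 and 4.001 CPM to 21.8, 13.2 and 17.9 CPM (log2 fold change 2.16, SE 0.44), or 2.81 without wild-type replicate 2. AT1G42697, the last called gene of the stretch, rose from 1.497, 2.08 and 2.95 CPM to 10.03, 8.94 and 5.11 CPM (1.88, SE 0.35). Large parts of all 3 have a near copy elsewhere in the genome, as given further on.

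Several calls were lost when 1 library was left out. Such a fit holds fewer libraries, so a lost call alone does not show that 1 library carried the difference. ACC2 was not called without wild-type replicate 1 or 2 or paps1-1 replicate 1 or 2, with log2 fold changes of 1.29, 1.42, 1.46 and 1.40 (edgeR adjusted p = 0.133, 0.155, 0.127 and 0.157). AT1G34910 was not called without wild-type replicate 2 or 3 or paps1-1 replicate 2 or 3, with log2 fold changes of -1.41, -1.55, -1.60 and -1.21. GLR3.3 was not called without wild-type replicate 2 or paps1-1 replicate 1 or 2, with log2 fold changes of 1.22, 1.20 and 1.23 (edgeR adjusted p = 0.0567, 0.0731 and 0.0545). In 3 other genes the call was lost in fewer of these fits. AT1G34315 was not called without wild-type replicate 2 (1.99) or paps1-1 replicate 1 (1.60), AT1G34560 without wild-type replicate 2 (2.82), and AT1G37040 without wild-type replicate 3 (2.14). ARF14 kept its call in each case, and its fitted log2 fold change moved from -7.84 to -7.16 without wild-type replicate 3.

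Some of the 200 members with 10 or more reads were read in a single genotype. There were 9 with no read in any paps1-1 library (4.5%, against 0.249% of the 21649 genes of the series with 10 or more reads) and 10 with none in any wild-type library (5%, against 0.531%). The stretch was chosen with this contrast known, so nothing is read from these shares. Of these 19 genes, 14 were pseudogenes and 15 had too few reads for a test. In locus order, those read in wild type alone were AT1G34100, AT1G34792, AT1G34795, ARF14, AT1G36305, AT1G42045, AT1G42110, AT1G42420 and MLO9. Apart from the 4 tested ones already given, they held 11 to 27 reads. MLO9 (AT1G42560), of a family of membrane proteins named after a barley mildew resistance gene, had 3, 3 and 19 reads in wild type, at least 6.89-fold lower in paps1-1. AT1G42045 had 3, 7 and 17 reads (at least 7.44-fold), AT1G42420 had 3, 8 and 6 (at least 4.69-fold), AT1G36305 had 2, 3 and 8 (at least 3.58-fold) and AT1G34100 had 8, 0 and 3. AT1G34100 overlaps AT1G34110 on the other strand, which was tested and had a log2 fold change of -0.03.

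Those read in paps1-1 alone were AT1G34590, AT1G35770, AT1G36110, AT1G36150, AT1G36360, AT1G36490, AT1G37080, AT1G37210, AT1G41825 and AT1G42350. Apart from AT1G36150, a protein-coding gene of the lipid-transfer and seed storage albumin superfamily, all were pseudogenes. AT1G36360 had 21, 1 and 8 reads (at least 12.1-fold higher in paps1-1), AT1G34590 had 13, 0 and 9 (at least 8.87-fold), AT1G36150 had 15, 3 and 2 and AT1G37080 had 15, 2 and 3 (both at least 8.06-fold). The other 5 held 11 to 14 reads, with bounds from 4.44-fold to 5.65-fold. In 8 of the 10 paps1-1 replicate 1 supplied the most reads, and without that library 9 genes of the stretch, not 19, had 10 or more reads with none in one genotype. Near misses followed the same form, as in the cyclin gene CYCT1;1 (AT1G35440), chosen after its values were seen, with 2, 0 and 0 reads in wild type and 32, 2 and 39 in paps1-1. In all, 26 of the 65 members too sparse for a test had genotypes that did not overlap, 17 higher in paps1-1 and 9 lower. This is 40%, against 16.2% of the 3332 untested genes of the series with 10 or more reads (8.43% higher and 7.77% lower), and at these counts their sizes cannot be resolved. Nothing is read from this share either.

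**Figure D4:**
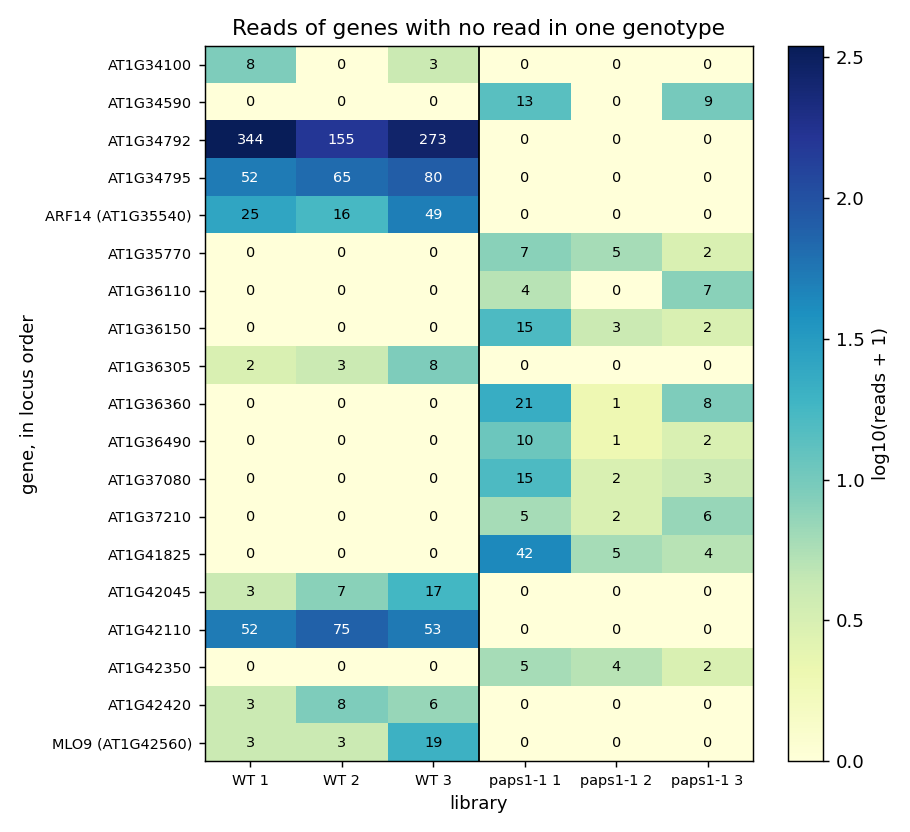
Reads of the 19 members with 10 or more reads that had none in one genotype, by library, in locus order; colour gives log10 of reads plus 1 and the cell gives the count. Among these rows, the longest run of 1 kind is 5 genes from AT1G36360 to AT1G41825, read in paps1-1 alone. The rows are not adjacent on the chromosome. Members read in both genotypes lie between them, such as SHM7 (AT1G36370, log2 fold change -0.16). AT1G34792 has the most reads, up to 344 in one library.

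Reads are assigned to a gene only where they fit a single place, so near copies of each gene were sought in the TAIR10.1 genome, as stretches of 50 or more bases at 95% identity or more. Such copies covered 50% or more of the exon bases of 10 of the 26 called members and of 5 of the 109 uncalled ones. No near copy was found for 13 called members, 5 higher and 8 lower, and for 91 uncalled ones. Only the first transcript listed for each gene was searched, or the whole gene where no exon was listed. In these sequences none was found for AT1G34095, AT1G41820, SADHU2-1, AT1G35035, ACC2 and GLR3.3. For ACC2 the sequence searched had 1729 exon bases, against 7428 for its relative ACC1, of which 219 had a near copy. Copies of other parts of ACC2 could thus be missed. By contrast copies covered 100% of AT1G34792, AT1G34795 and AT1G34860, 99.3% of AT1G34910, 97.2% of AT1G42697, 95.9% of AT1G42110, 89.7% of AT1G35115, 82.9% of AT1G37040, 69.7% of AT1G36270 and 52.6% of ARF14. The levels of these genes are uncertain, and the part of the copies in their differences was not tested.

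Much of the coding content of the stretch did not pass the test, by families grouped from the annotation. None of 5 tested genes for ribosomal proteins and translation was called, with log2 fold changes from -0.35 to 0.43, and RP1 (AT1G43170), a cytosolic ribosomal protein, had 367.8 ± 81.2 CPM in wild-type and 495.6 ± 130.9 CPM in mutant libraries (SD, n = 3). RPL21C, AT1G34360 and AT1G41880 had log2 fold changes of 0.43, -0.35 and 0.09. None of 7 tested genes of sugar and nitrogen metabolism was called (median 0.25), among them the nitrate reductase NIA2 at 55.5 ± 13.4 and 93.2 ± 34.1 CPM (0.75, SE 0.31), with TPPD, GAPB and FBP at 0.40, 0.58 and 0.25. None of 7 tested kinases and receptors was called (median 0.14), among them FAB1D, of a family of phosphoinositide kinases, at 163.0 ± 27.8 and 215.3 ± 37.7 CPM (0.40, SE 0.27). The extremes of that list were the leucine-rich repeat kinase gene AT1G35710 (0.78, SE 0.48) and the calcium-dependent kinase gene CDPK2 (-0.44, SE 0.28), and AT1G34300 had 0.24. In RP1, NIA2, FAB1D, AT1G35710 and CDPK2 the genotypes overlapped.

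None of 10 tested transcription factors outside the auxin response factors was called, with a median log2 fold change of -0.03, the highest being NAC016 (AT1G34180) at 1.72 ± 0.146 and 3.42 ± 0.825 CPM (1.003, SE 0.34), whose genotypes did not overlap. AT1G36060, RAP2.6 and NAC017 had 0.50, -0.45 and -0.16. Neither of 2 tested 14-3-3 genes, whose products bind phosphorylated proteins, was called: GRF11 had a log2 fold change of -0.74 (SE 0.39) and the phi form GF14 PHI one of 0.22 (SE 0.29). Of 4 tested genes of the cell wall and surface none was called, with AGP5, PHI-1, SKS6 and AT1G43080 at -0.39, 0.09, 0.07 and -0.07. In these 3 families no member reached the size of the losses in the thionin genes. PUM9, the single tested Pumilio gene of 3, had -0.77 (SE 0.65). In lipid metabolism ACC2 was the single call among 4 tested, beside UGT80B1 (0.33), AT1G42470 (-0.31) and ACC1, and in membrane transport GLR3.3 was the single call among 3, beside the putative magnesium transporter AT1G34470 at -0.91 (SE 0.34) and AT1G35350 at 0.63 (SE 0.52).

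The called genes were unevenly spread along the stretch. In consecutive blocks of 25 tested genes, 2 were called from AT1G34065 to AT1G34420, 10 from AT1G34430 to AT1G35210, 2 from AT1G35220 to AT1G35720, 5 from AT1G35730 to AT1G36990 and 7 from AT1G37040 to AT1G43580. The block with 10 holds the 4 tested thionin genes and SADHU2-1, 9 of its calls being losses, and its median size of the log2 fold change was 0.91, against 0.20 to 0.39 in the other blocks of the stretch. In the last block, of 10 tested genes from AT1G43590 to AT1G43770, none was called. Losses thus outnumbered gains in the early part, while gains outnumbered losses, 7 to 5, from AT1G35730 on.

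At the start of the stretch the first call came early. AT1G34060, at this end, had 31 reads and no test, SAMC2 had a log2 fold change of 0.40 (SE 0.39), and AT1G34095 follows as the first call. Just outside, AT1G34010, AT1G34020 and AT1G34030 had log2 fold changes of -0.30, 0.01 and 0.28. The nearest called gene was AT1G33817, with 6 tested genes between it and the stretch, these 3 among them. It is a pseudogene with 0, 1 and 0 reads in wild type and 163, 39 and 198 in paps1-1. Among the 100 tested genes before the stretch 3 were called, all higher in paps1-1, a share near the 2.34% of all tested genes. They include AT1G33813, a pseudogene and the tested gene just before AT1G33817, with a log2 fold change of 6.65 (SE 0.49). Large gains thus occurred just outside this end too.

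At the other end the last called member was AT1G42697. After it came 21 tested members of which none was called, with log2 fold changes from -0.77 (AT1G43675) to 0.88 (AT1G43590) and a median of 0.09. Genotypes did not overlap in 1 of the 21, against 14.7% of all tested genes. Before AT1G42697, the longest run of uncalled tested members between called ones was 16 genes, so the 21 exceed it by little. With 2.34% of all tested genes called, none among 21 is near that share. The median size of the log2 fold change was 0.24 among them and 0.35 in the 114 tested members up to AT1G42697. The last members were EMB1075 (-0.16), the non-coding RNA gene AT1G43765, which was not tested, and AT1G43770 (-0.00), and those just outside were AT1G43775 (0.55), FTM1, not tested, and SEU (0.06). The next called gene was AT1G46120, a pseudogene with 2, 0 and 1 reads in wild type and 219, 24 and 135 in paps1-1. It lay 81 uncalled tested genes beyond AT1G42697 and was the single call among the 100 tested genes after the stretch. Under other settings the genes called after AT1G42697 numbered 2 without paps1-1 replicate 3, 3 with DESeq2 and 5 with no filter on low counts, against 1 here.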

How the data were processed

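Pieces of style that held pollen tubes, 3 samples of each genotype, gave mRNA libraries that were run on an Illumina HiSeq2000 after PicoPure extraction with DNase on the column, per the labels' protocols. The authors deposited counts, whole reads per gene with one table per library, made with STAR against TAIR10 per the submitters' processing notes; for the version, annotation and settings the sources used here give nothing. Counts with strand ignored were used, since one strand's total was 1.02 to 1.07 times the other's.

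With filterByExpr at a minimum count of 10, 18317 genes entered edgeR 4.0.16. Counts were scaled by TMM and compared with glmQLFit and glmQLFTest (two-sided, R 4.3.3) over all 6 libraries. Called means an adjusted p below 0.05, by Benjamini and Hochberg over all tested genes. The common biological coefficient of variation was 0.263. CPM use effective library sizes. Members with no read in one genotype have a bound against 3 reads over the group, and those with few reads have a read ratio and its exact interval; both cover counting error only. The fit was tested on simulated data. Names and kinds of genes came from TAIR10.1, whose build name differs, so no coordinates are given.

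The members, the family lists and the rule for named genes were chosen with earlier results of these data known. Named are all called members, genes with no read in one genotype, the 3 genes on each side of both ends, the nearest called genes outside, up to 3 members just under and 3 just over the minimum of 10 reads, and up to 4 tested genes per family with the smallest p. Alternatives were RLE factors, DESeq2 1.42.0, leaving the filter out, a stricter one of 5 CPM or more in 3 libraries, the replicate number as a block, each library left out, and wild-type replicate 3 with paps1-1 replicate 2 left out.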

Additional observations from a re-analysis of the deposited data

How the results depend on the processing

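All 26 called members kept their direction under each of the 12 alternatives that tested them, and 17 kept their call in all of these. With no filter on low counts, 47 members (23 higher) and 1042 genes in all were called, and 5 genes after AT1G42697; with a filter of 5 CPM in 3 libraries, 15 members (4 higher, 11 lower) and 216 genes, since fewer genes were tested. Without wild-type replicate 3 and paps1-1 replicate 2 together, 237 genes and 20 members were called. DESeq2 called 27 members, 26 of them the same, and 3 genes after AT1G42697. With RLE factors ACC2 lost its call (adjusted p = 0.0527 by edgeR). With 1 library left out at a time, 24 to 30 members were called (6 to 11 higher, 16 to 19 lower), of 333 to 456 genes in all, with 1 to 2 genes after AT1G42697 and 9 to 20 members with no read in one genotype. The 9 were found without paps1-1 replicate 1. A minimum of 5 or 20 reads gave 220 or 171 members in place of 200.

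The replicate numbers did not pair the samples: deviations of same-numbered libraries from their group means correlated at -0.256, 0.126 and -0.151. With the replicate block 26 members were called, the same ones, and 482 genes in all.

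Depth limits the 65 untested members most. A count of 0 allows up to 0.638 CPM in paps1-1 replicate 2 and up to 0.152 to 0.211 CPM in the other libraries, and genes with near copies lack the reads that fit several places.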

Other observations

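Below the minimum of 10 reads, 123 members had 1 to 9 reads, and 85 of them were pseudogenes. Of the 123, 59 were read in paps1-1 alone, 39 in wild type alone and 25 in both. At so few reads a gene can be read in 1 genotype by sampling alone. The shares among all genes of the series with 1 to 9 reads were not taken, so nothing is read from these counts. Their reads summed to 201 in paps1-1 and 121 in wild type, and their summed level was 5.10, 6.81 and 4.196 CPM in paps1-1 replicates 1 to 3 and 2.27, 1.59 and 3.58 CPM in wild-type replicates 1 to 3. The genotypes did not overlap in this sum, which rests on few reads in each gene and was not tested.

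AT1G36105, a pseudogene too sparse for the test and chosen after its values were seen, had 10, 25 and 65 reads in wild type and 6, 0 and 2 in paps1-1, a ratio of wild type to paps1-1 of 10.3 (95% counting interval 5.05 to 24.6). As in AT1G41930 and AT1G42160, wild-type replicate 3 was the highest.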
